A study of Mus musculus with 6 samples.

Results

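The VEGF system was examined in 9 genes, namely the ligands Vegfa, Vegfb, Vegfc and Pgf, the receptor tyrosine kinases Flt1, Kdr and Flt4, and the neuropilin co-receptors Nrp1 and Nrp2. They were found by symbol among the 14824 genes of the deposited table, and all 9 were present and were among the 13747 genes tested. The libraries came from primary somatosensory (S1) cortex of WT C57B6 mice at postnatal day 21. For the 3 WS libraries the whiskers on 1 side had been brushed by hand each day for just over a week, and tissue was taken 90 min after the last session, whereas the 3 NS libraries were from S1 cortex of the same strain and age without stimulation. The labels name no transgene, virus or drug for either group, and the study describes the mice as male. Cortex of the side that was not stimulated is given as the control of this paradigm, but no label ties an NS library to the mouse of a WS library, so p-values measure the spread between these libraries.

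VEGF proteins are secreted growth factors that bind receptor tyrosine kinases on endothelial cells and drive the growth, survival and permeability of blood vessels. VEGF-A is the main angiogenic ligand and signals through VEGFR2 (Kdr), while VEGFR1 (Flt1) binds VEGF-A tightly and can act as a decoy, VEGF-B and PlGF (Pgf) bind VEGFR1, and VEGF-C binds VEGFR3 (Flt4). Neuropilins hold VEGF at the receptor and are also receptors for class 3 semaphorins in axon guidance. In the developing cortex Vegfa is made largely by glia and neurons, and its transcription is known to respond to the hypoxia-inducible factors.

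The study asked if whisker stimulation changes VEGFa in the barrel cortex. Of the 9 genes, Vegfa was higher in WS by 2.65-fold, and the other 8 did not pass the test. Vegfa lies on the minus strand of chromosome 17, at chr17:46016993-46032369 (GRCm38, GENCODE M21), with 13 annotated transcripts and no other annotated gene overlapping it, and the counts do not separate its splice forms. The 250 bases before its RefSeq start (chr17:46032378-46032627, minus strand) are shown next to those of Vegfb (chr19:6987652-6987901, minus strand, GRCm38.p6), because these are the ligand that rose and the ligand with the highest level per kilobase of exon, which did not pass the test. Capitals mark the GC box GGGCGG, the motif of SP1-type factors, and the cores ACGTG and GCGTG bound by hypoxia-inducible factors, each searched on both strands.
Vegfa promoter: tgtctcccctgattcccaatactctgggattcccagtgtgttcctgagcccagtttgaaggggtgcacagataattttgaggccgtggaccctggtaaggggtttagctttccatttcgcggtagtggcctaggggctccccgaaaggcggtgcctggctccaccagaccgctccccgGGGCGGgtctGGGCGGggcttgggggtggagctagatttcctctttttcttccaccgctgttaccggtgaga
Vegfb promoter: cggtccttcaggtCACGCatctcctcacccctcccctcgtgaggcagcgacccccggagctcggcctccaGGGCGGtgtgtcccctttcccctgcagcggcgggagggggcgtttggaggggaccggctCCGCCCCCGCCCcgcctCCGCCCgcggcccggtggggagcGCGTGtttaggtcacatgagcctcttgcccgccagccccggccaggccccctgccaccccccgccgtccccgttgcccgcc
The Vegfa window held 2 GC boxes and 0 copies of either hypoxia core, and the Vegfb window held 4 GC boxes, 2 copies of GCGTG and 0 of ACGTG. Among all 32536 windows of the same length, 33.0% held a GC box, 28.3% GCGTG and 16.7% ACGTG. A second Vegfa window, before a start inside the gene (chr17:46025164-46025413), held 1 copy of each of the 3 motifs. No match in a window says nothing about elements farther from the start.

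Levels are in CPM, that is, reads of a gene as a proportion of its library total after TMM scaling (counts per 1000000), from read counts that were computed back out of standardised values. Vegfa had 793, 846 and 804 reads in NS replicates 1, 2 and 3, and 1687, 2374 and 2495 reads in WS replicates 1, 2 and 3. This corresponded to 50.0, 52.8 and 49.9 CPM in NS against 99.9, 146.8 and 157.5 CPM in WS. Every WS library was above every NS library, and the NS values lay close together while WS replicate 1 was well below WS replicates 2 and 3. The mean of the 3 NS libraries was 50.9 ± 1.64 CPM and that of the 3 WS libraries 134.7 ± 30.6 CPM (SD), so that the coefficient of variation was 3.22% in NS and 22.7% in WS. The log2 fold change of Vegfa was 1.40 (standard error 0.14, 95% interval 1.09 to 1.71, edgeR adjusted p = 0.00356). Only Slc16a1 had a smaller p-value, since Vegfa ranked 2 among the 13747 genes. Between libraries that share a number, Vegfa was 2.00-, 2.78- and 3.16-fold higher in WS. Without NS replicate 2 the log2 fold change was 1.43 with an adjusted p of 0.0851, and without NS replicate 3 it was 1.39 with an adjusted p of 0.0636 (both edgeR), so the call was lost when either of these libraries was left out.

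A gene was called at an adjusted p under 0.05 with a log2 fold change beyond 1 in either direction, as in the methods of the study. By this rule 1 of the 9 VEGF genes was higher in WS, where 0.0291% of all genes tested were, and 0 were lower, where 0% of all genes were. At an unadjusted p under 0.05 (edgeR) the number was again 1 of 9 higher, against 0.866% of all genes, and 0 of 9 lower, against 0.327%. Vegfa was also the 1 member of 9 whose groups did not overlap, against 3.10% of all genes that were higher without overlap. On an adjusted p under 0.05 alone (edgeR) Vegfa was again the 1 member called, against 0.0364% of all genes, and in the paired fit, where the replicate number enters as a block, it was the 1 member called higher, against 0.0436%. Between same-numbered libraries 2 of the 9, Vegfa and Flt4, were higher in WS in 3 of 3 pairs, against 9.82% of all genes. The median over the 9 log2 fold changes was 0.12, and over all genes tested it was 0.0074. Without WS replicate 3 these medians were 0.024 and 0.004. Of the 9 genes 8 had a log2 fold change above 0, against 53.0% of all genes tested, and 5 did without WS replicate 3.

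**Figure D1:**
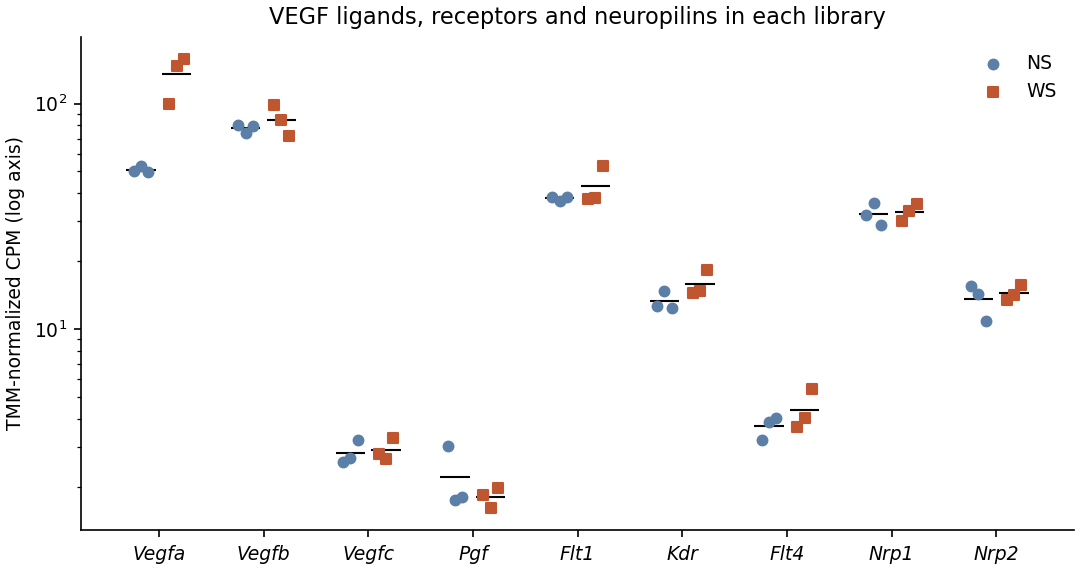
TMM-normalized CPM (log axis) of the 9 VEGF genes in each of the 3 NS libraries (circles) and 3 WS libraries (squares), with the mean of each group as a black line. The Vegfa points separate, at 49.9 to 52.8 CPM in NS and 99.9 to 157.5 CPM in WS, while NS and WS points overlap for the other 8 genes.

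None of the other ligands passed the test. Vegfb, at chr19:6982473-6987651, which encodes a VEGFR1 ligand linked to cell survival and lipid handling rather than to strong vessel sprouting, had 80.6, 74.1 and 79.2 CPM in NS, and 98.2, 84.3 and 71.6 CPM in WS. WS replicate 1 was the highest of the 6 libraries and WS replicate 3 the lowest, an order opposite to that of Vegfa within WS. The log2 fold change of Vegfb was 0.12 (standard error 0.11, 95% interval -0.11 to 0.35, edgeR adjusted p = 0.9998), and the upper end of its interval corresponds to a 1.28-fold rise. Vegfc (chr8:54077606-54187096), the ligand of VEGFR3, was rare, with 41, 43 and 52 counts in NS and 47, 43 and 52 counts in WS, and its log2 fold change of 0.04 had a 95% interval from -0.41 to 0.49. Pgf (chr12:85166635-85177790), which encodes placental growth factor, was counted 48, 28 and 29 times in NS and 31, 26 and 31 times in WS. Apart from the high count in NS replicate 1 the Pgf counts of both groups lay in the same range, and its log2 fold change of -0.28 (95% interval -0.88 to 0.31) became 0.02 without that library. Vegfc and Pgf had 46.3 and 32.2 counts on average, and differences within these intervals were not detectable at this depth.

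Since the ligands differ in length, their levels were compared as CPM per kilobase of exon, using the union of annotated exons. Vegfb had the highest level of the 9 genes in NS, 48.6 ± 2.13 CPM per kilobase, followed by Vegfa at 11.9 ± 0.382 (SD, n = 3 each). In WS the level of Vegfa was 31.4 ± 7.15 CPM per kilobase and that of Vegfb 52.8 ± 8.29 (SD, n = 3 each). Vegfa thus stayed in the second place in WS, and its highest library, at 36.8, did not reach the lowest Vegfb library, at 44.6. Of the summed level of the 4 ligands, Vegfa made up 18.2, 20.5 and 18.5% in NS replicates 1, 2 and 3, and 27.0, 38.7 and 44.1% in WS replicates 1, 2 and 3. The sum itself was 60.2 to 64.0 CPM per kilobase in NS and 83.4 to 88.4 in WS, and the 3 WS libraries were close in this sum although their Vegfa and Vegfb levels differed. The other 7 genes were lower than both, with Nrp1 at 3.31, Flt1 at 2.82, Kdr at 1.47, Vegfc at 1.16, Nrp2 at 1.15, Pgf at 0.755 and Flt4 at 0.450 CPM per kilobase on average in NS. The distances depend on the length used, since with the longest transcript Nrp1 came to 8.88 and Flt1 to 5.52 in NS, against 14.7 for Vegfa. Within this order the NS libraries of Vegfc and Nrp2 overlapped, as did those of Nrp2 and Pgf, and the other neighbours did not. In WS the overlapping neighbours were Nrp1 and Flt1, Nrp2 and Vegfc, and Pgf and Flt4.

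**Figure D2:**
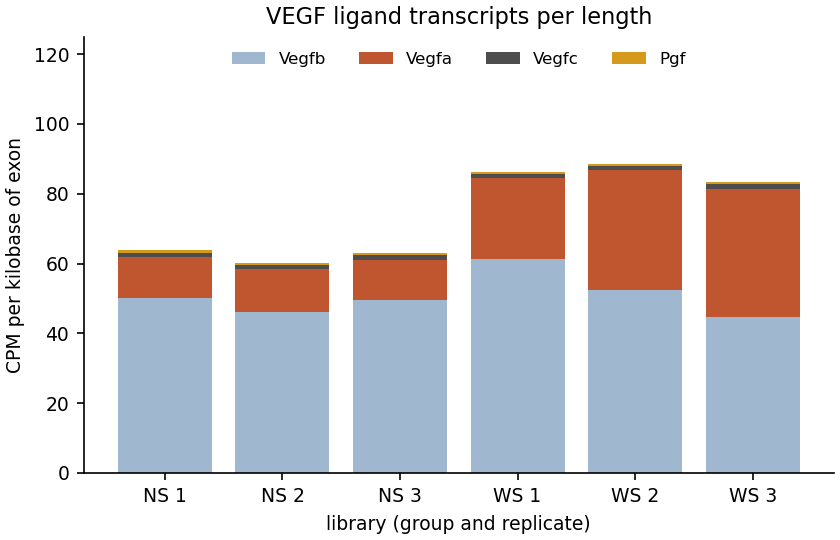
Stacked levels of the 4 VEGF ligands in CPM per kilobase of exon, 1 bar for each of the 3 NS and 3 WS libraries. The Vegfa segment grows from 11.7 to 12.3 in the NS bars to 23.3 to 36.8 in the WS bars, on top of a Vegfb segment of 44.6 to 61.2 over all bars.

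Among the receptors, WS replicate 3 stood apart from the other libraries. Flt1 (chr5:147561604-147726011) had 38.6, 37.1 and 38.5 CPM in NS, and 37.9, 38.2 and 52.8 CPM in WS. WS replicates 1 and 2 lay within the NS range of Flt1, and WS replicate 3 was 1.39 times the NS mean. Kdr (chr5:75932827-75978458), the main signalling receptor, had 12.7, 14.8 and 12.4 CPM in NS and 14.5, 14.8 and 18.2 CPM in WS. Flt4 (chr11:49609263-49652739), which marks lymphatic and sprouting endothelium, had 3.21, 3.87 and 4.04 CPM in NS and 3.67, 4.02 and 5.43 CPM in WS. For both, WS replicate 3 was again the highest library, at 1.37 times the NS mean for Kdr and 1.47 times for Flt4, and the other WS libraries overlapped with NS.

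None of the 3 receptors passed the test. The log2 fold changes were 0.17 for Flt1 (95% interval -0.10 to 0.45), 0.25 for Kdr (95% interval -0.03 to 0.53) and 0.24 for Flt4 (95% interval -0.21 to 0.68), all 3 with an edgeR adjusted p of 0.9998. The upper ends of these intervals correspond to rises of 1.37-, 1.44- and 1.60-fold, below the 2.14-fold that is the lower end for Vegfa. Without WS replicate 3 the log2 fold change was -0.0011 for Flt1, 0.14 for Kdr and 0.05 for Flt4. The ratio of Flt1 to Kdr within a library, on the log2 scale, was 1.52 ± 0.17 in NS, against 1.43 ± 0.09 in WS (SD, n = 3 each, exact permutation test, two-sided p = 0.40). Reads of full-length Flt1 and of its soluble, decoy form are not separated in a count per gene.

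**Figure D3:**
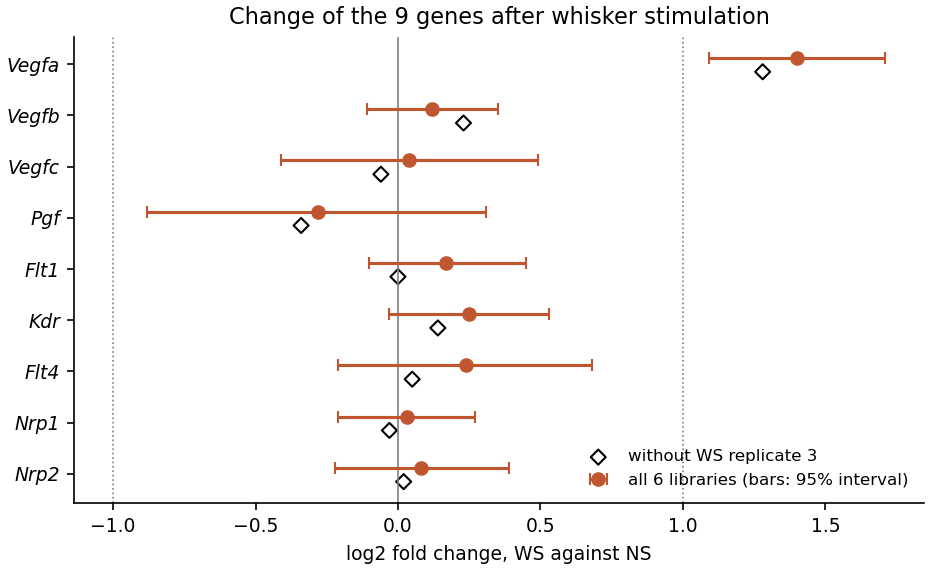
Log2 fold change of WS against NS for the 9 VEGF genes, with all 6 libraries (filled circles, bars are 95% intervals) and without WS replicate 3 (open diamonds). Dotted lines stand at a log2 fold change of 1 in either direction; the Vegfa interval, 1.09 to 1.71, lies beyond it and the other 8 intervals include 0.

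The receptors are made mostly by endothelial cells, and in whole cortex more vessel cells and more RNA per vessel cell cannot be told apart. A list of 14 endothelial markers without the receptors was therefore summed in each library, and all 14 had reads in every library. The sum was 401.4 to 481.0 CPM in NS and 457.9 to 509.9 CPM in WS, with the highest value in WS replicate 3, at 1.16 times the NS mean. By replicate number it was 401.4 against 457.9, 438.0 against 459.8 and 481.0 against 509.9 CPM, higher in WS in 3 of 3 pairs. The summed level of 10 pericyte markers was 286.1 to 289.7 CPM in NS and 292.9 to 339.7 CPM in WS, also with the highest value in WS replicate 3, at 1.18 times the NS mean. The ratio of the group means, WS to NS, was 1.08 for both sums. For other lists it was 1.15 (oligodendrocyte), 1.08 (meningeal), 1.06 (astrocyte without Gja1), 1.05 (microglia), 0.988 (cortical neuron) and 0.941 (choroid plexus). WS replicate 3 was also the highest library for the oligodendrocyte and astrocyte sums, so this was not particular to vessel markers. Per 1000 CPM of endothelial markers, Flt1 had 96.2, 84.7 and 80.0 CPM in NS and 82.8, 83.1 and 103.6 CPM in WS. The groups overlapped on this scale (mean 87.0 ± 8.33 against 89.8 ± 11.9, SD, n = 3 each, exact permutation test, two-sided p = 0.70). Kdr came to 30.4 ± 4.16 in NS and 33.2 ± 2.26 in WS per 1000 CPM of endothelial markers (SD, n = 3 each, exact permutation test, two-sided p = 0.40), and Flt4 to 8.41 ± 0.412 and 9.14 ± 1.36 (SD, n = 3 each, exact permutation test, two-sided p = 0.60). The part of vessel-cell content in the receptor values of WS replicate 3 was not tested.

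**Figure D4:**
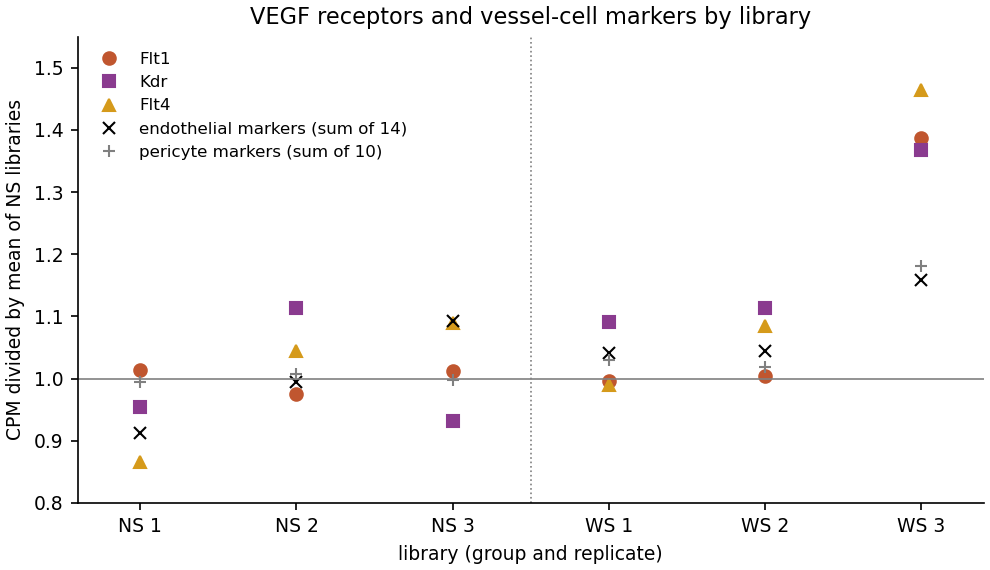
CPM of Flt1, Kdr and Flt4 and the summed CPM of 14 endothelial and 10 pericyte markers in each library, divided by the mean of the 3 NS libraries. In WS replicate 3 the receptors lie at 1.37 to 1.47 and the marker sums at 1.16 and 1.18, while WS replicates 1 and 2 lie between 0.99 and 1.11.

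Neither neuropilin passed the test (edgeR adjusted p = 0.9998 for both). Nrp1 (chr8:128358604-128503363), which binds VEGF-A and semaphorin 3A, had 31.9, 36.2 and 29.0 CPM in NS, and 30.1, 33.3 and 35.9 CPM in WS. Nrp2 (chr1:62703285-62818695), a partner of VEGFR3 and a receptor for semaphorin 3F, had 15.5, 14.3 and 10.9 CPM in NS and 13.4, 14.2 and 15.6 CPM in WS. For both genes the groups overlapped throughout, and the log2 fold changes of 0.03 (95% interval -0.21 to 0.27) and 0.08 (95% interval -0.22 to 0.39) have upper ends that correspond to rises of 1.21-fold and 1.31-fold. Nrp1 and Nrp2 are also made by neurons, so a count in whole cortex does not refer to vessels alone. In the annotation Nrp2 overlaps an antisense gene and a second gene on its own strand, and Nrp1 overlaps a miRNA gene, whose reads may have entered their counts, as no counting method is described.

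A ratio of 2 genes within a library does not depend on how libraries are scaled, so Vegfa was set against each of the other 8 genes. The log2 ratio of Vegfa to Vegfb was -0.61 ± 0.11 in NS, against 0.65 ± 0.57 in WS (SD, n = 3 each), which means that Vegfa had fewer reads than Vegfb in all NS libraries and more in all WS libraries. Against Kdr, the ratio was 1.94 ± 0.10 in NS and 3.07 ± 0.26 in WS, and against Flt1 it was 0.42 ± 0.08 and 1.64 ± 0.28 (SD, n = 3 each). Over the 8 ratios the difference between WS and NS lay between 1.13, for Kdr, and 1.61, for Pgf. The groups did not overlap in any of the 8 ratios, and each had a two-sided p of 0.10 in an exact permutation test, the smallest that 3 libraries against 3 allow. All 8 share the same Vegfa counts, so they are not independent.

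According to the labels the tissue holds neurons, astrocytes, endothelial cells, oligodendrocytes, pericytes and microglia, and markers of each were detected in every library. The cortical neuron list (10 genes) summed to 7007.5 to 8341.0 CPM over the 6 libraries, with Camk2a the most abundant. Astrocytes are 1 known source of VEGF-A in cortex. Gja1, an astrocyte marker, had 347 counts in NS replicate 3, the lowest count of any astrocyte marker in any library. In the other libraries it had 2953 to 3688 counts. It was left out of the astrocyte sum after these counts were seen. The other 9 markers summed to 4771.1 ± 182.4 CPM in NS against 5056.9 ± 567.9 CPM in WS (SD, n = 3 each, exact permutation test, two-sided p = 0.50). Per 1000 CPM of these markers, Vegfa had 10.3, 10.8 and 10.9 CPM in NS and 20.6, 31.7 and 27.6 CPM in WS. The groups did not overlap on this scale, with a ratio of the means of 2.50 and a two-sided exact permutation p of 0.10, which 3 libraries against 3 cannot go below.

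The transcriptional regulators of Vegfa were considered next, as a list of 23 genes around the hypoxia-inducible factors and other known inducers, of which 20 were tested. Of these, 0 were called and 0 had an unadjusted p under 0.05 (edgeR), and the median log2 fold change was 0.019, with 13 of 20 above 0, against 53.0% of all genes (median -0.030 and 8 of 20 without WS replicate 3). Hif1a, the oxygen-regulated subunit, had 87.5, 87.1 and 86.3 CPM in NS and 74.9, 87.6 and 92.6 CPM in WS, and its log2 fold change was -0.03 (standard error 0.09, edgeR adjusted p = 0.9998). The groups overlapped, and the lowest library was WS replicate 1. HIF proteins are known to be set mainly by their stability, which RNA counts do not show. The 3 smallest p-values of the list belonged to Tgfb1 (log2 fold change 0.22), Egln2 (0.12) and Hif3a (0.20), with unadjusted edgeR p-values of 0.173, 0.282 and 0.332. For Hcar1, which encodes a lactate receptor, the log2 fold change was 0.28 with a standard error of 0.33. Epas1 and Arnt were not analysed here.

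Among 12 other genes known to be induced by HIF1, 11 were tested, 0 were called, 0 had an unadjusted p under 0.05 (edgeR), and the median log2 fold change was -0.009, with 5 above 0 and 6 below. The 3 smallest p-values were those of Ndrg1 (log2 fold change 0.18, standard error 0.08), Ankrd37 (0.49, standard error 0.29) and the hexokinase gene Hk2 (-0.31, standard error 0.20). Pgk1 (-0.09) and Pdk1 (-0.10), 2 of the 11 genes, were lower in every WS library than in every NS library, against 3.16% of all genes tested.

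Outside the cell, VEGF is held or released by heparan sulphate proteoglycans, proteases and binding proteins, and competes with semaphorins for neuropilins. Of 23 such genes 21 were tested, with 0 called, 1 at an unadjusted p under 0.05 higher in WS (edgeR, against 0.866% of all genes) and 0 lower, and a median log2 fold change of 0.046 (0.016 without NS replicate 1, 0.131 without NS replicate 2). That gene was Sparc, a matrix protein that binds VEGF, with a mean of 252.5 CPM in NS (SD 20.0, n = 3) against 317.8 CPM in WS (SD 48.4, n = 3), a log2 fold change of 0.33 and an edgeR adjusted p of 0.9998. Its highest library was WS replicate 3, and without it the log2 fold change was 0.20. Hspg2, which encodes perlecan, and Thbs1, an inhibitor of vessel growth, came next with log2 fold changes of 0.22 and 0.49 and standard errors of 0.14 and 0.36, and came to 0.08 and 0.23 without WS replicate 3. The further ligand Vegfd was rare, with 0.821 to 1.98 CPM over the 6 libraries, and its log2 fold change was -0.18 (standard error 0.31).

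Downstream of the receptors, 53 of 54 signalling genes (phospholipase C gamma, PI3 kinase, Akt, Ras, MAP kinase, calcineurin and NFAT members) were tested. There were 0 called and 0 with an unadjusted p under 0.05 (edgeR), 21 had a log2 fold change above 0 and 32 below, and the median was -0.018. Nck1 and Ppp3r1 were among the genes with the smallest p-values, with log2 fold changes of -0.25 and -0.11 and unadjusted edgeR p-values of 0.0617 and 0.186. Of 24 partners of VEGF receptors and neuropilins 23 were tested, with 0 called, 0 at an unadjusted p under 0.05 (edgeR) and a median log2 fold change of 0.032. The integrin gene Itgb3 (0.27), the endothelial surface gene Clec14a (-0.23) and Itga5 (0.23) had the smallest p-values there. Ptprb was not analysed here.

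Genes of endothelial tip cells, the cells that lead a sprout under VEGF-A, and genes known to be induced by VEGF formed a list of 21, of which 18 were tested. Of these 0 were called, and 1 had an unadjusted p under 0.05 and was higher in WS (edgeR), against 0.866% of all genes. The median was 0.094 on the log2 scale, with 12 of 18 above 0, against 53.0% of all genes. The smallest p-values were those of Notch4 (log2 fold change 0.27, standard error 0.12), Sox17 (0.33, standard error 0.15) and Notch1 (0.26, standard error 0.12), all 3 with an edgeR adjusted p of 0.9998. Notch4, Sox17 and Robo4, 3 of the 18 genes, were higher in every WS library than in every NS library, against 3.10% of all genes tested. Angpt2, a destabiliser of vessels, had a log2 fold change of 0.32 with a standard error of 0.24, Dll4, the Notch ligand of tip cells, 0.11 with a standard error of 0.19, and Esm1 had 1 to 6 counts per library and was not tested. Of the 14 endothelial markers 13 had a log2 fold change above 0 (median 0.083), against 53.0% of all genes, with 8 of 14 above 0 without WS replicate 3. Pecam1, the vessel marker CD31, had the largest value, with 17.2, 16.3 and 19.2 CPM in NS and 22.1, 33.0 and 41.5 CPM in WS (log2 fold change 0.87, edgeR adjusted p = 0.813). In the paired fit the edgeR adjusted p of Pecam1 was 9.5e-04, with a log2 fold change of 0.84, still under the threshold of 1. Without WS replicate 1, its lowest WS library, Pecam1 was called, with a log2 fold change of 1.08 and an edgeR adjusted p of 0.00542, and DESeq2 on all 6 libraries gave an adjusted p of 0.00217. In every other run the adjusted p of Pecam1 was above 0.05. These were limma, the other edgeR normalizations, no filter (edgeR 0.759) and each other library left out. Without WS replicate 3 its log2 fold change was 0.65, with an edgeR adjusted p of 0.884. Eng, a co-receptor for TGF-beta, was next, at 0.27 (standard error 0.10, edgeR adjusted p = 0.9998).

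**Figure D5:**
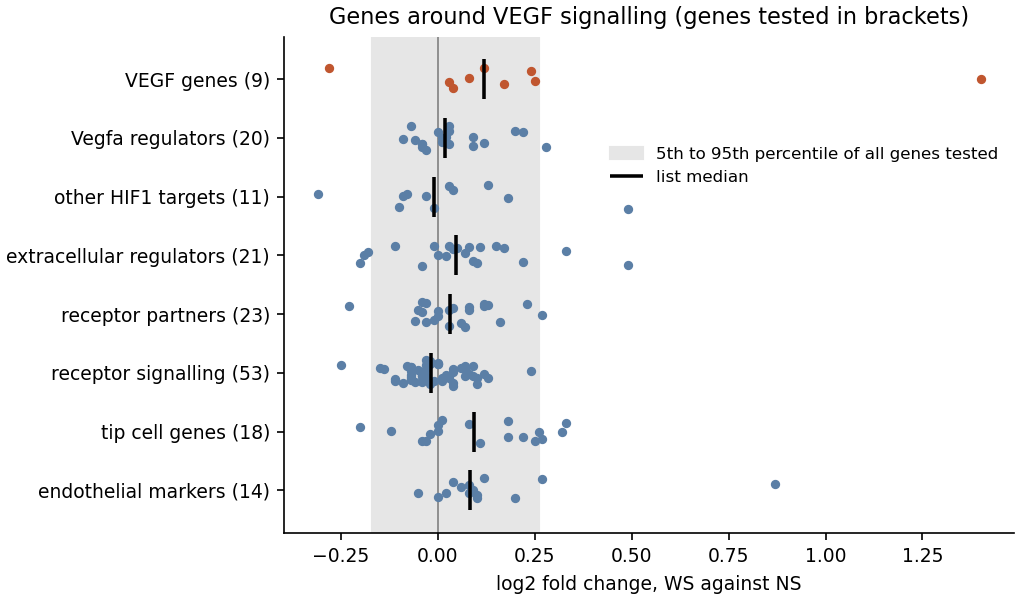
Log2 fold change of WS against NS for each gene of the VEGF group and 7 lists around it (points), with the list median (black line) and the 5th to 95th percentile of all genes tested, -0.17 to 0.26 (grey band). Vegfa, at 1.40, stands alone at the right, and list medians lie between -0.018 and 0.12.

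Genes whose profile over the 6 libraries was most like that of Vegfa were sought among the 13687 genes that averaged 10 or more counts. Likeness was the root mean square difference of log2 CPM, each gene centred on its own mean, for which a gene that does not vary would score 0.72 against Vegfa. The 5 nearest genes were the neuronal lactate transporter gene Slc16a7 at 0.13, the immediate early genes Egr4 and Fos at 0.28 each, Pecam1 at 0.30 and Rab37 at 0.31. Slc16a7 shared with Vegfa the order of the WS libraries, with centred log2 CPM of 0.21, 0.81 and 1.11 against 0.28, 0.84 and 0.94. Of the VEGF genes the nearest was Kdr, at 0.59, and the farthest Pgf, at 0.87. These distances are a description of 6 libraries, in which the groups differ, and carry no test.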

How the data were processed

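RNA from S1 cortex was sequenced by the authors on the DNBseq platform. RNA integrity was checked by the authors, and the paper gives only the lower limit of acceptance. After filtering of rRNA and poor reads, they aligned with HISAT2, to mm10 per the submitters' processing notes, while the counting tool is not given in the sources used here. The deposited table gives, for each gene, an estimated count averaged over the 6 libraries without depth scaling, and the SD of that count. The authors standardised the counts of a gene over the libraries, so each library has a z score in the deposited table. The counts of each library were computed back as mean plus z score times SD and rounded. The table also holds the authors' fold changes and p-values, as does a second table, and these were not used. The column of WS replicate 3 is spelled with an extra letter and was assigned because the WS mean is the average of it and the other two WS columns.

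Total counts were between 15660395 and 17276168 per library. Relative counting error falls with the count. The intervals are for the difference between the groups, estimated from the spread between these libraries. WS was compared with NS in edgeR 4.0.16 (R 4.3.3) by the quasi-likelihood test after TMM and filterByExpr, with p adjusted by Benjamini-Hochberg over 13747 genes. Standard errors were taken as the log2 fold change divided by the root of F, and intervals used the moderated degrees of freedom. The fit was tested on simulated counts. The design foresaw counts as the deposited unit, and the same test was kept for the counts computed back. Alternatives were RLE and no normalization factors, no filter, DESeq2 1.42.0, limma 3.58.1, a replicate block, and leaving out each library. The receptor levels per endothelial marker without a library, the ratio of Flt1 to Kdr, the astrocyte sum without Gja1, and Gja1 without a library, were chosen after seeing the data. Deviations from the group mean were correlated between same-numbered libraries (r = 0.342, 0.228 and 0.124 over 13747 genes, themselves not independent). Between libraries of unlike number r lay between -0.257 and 0.0385. The numbers in the sample titles may thus pair the samples, but no label states it. The main fit, its intervals and the permutation tests kept no block as planned, and the paired fit was an alternative. Python 3.11.15 and SciPy 1.17.1 were used for permutation tests.

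The 9 genes and the lists were chosen with earlier results of these data known. Lists covered regulators of Vegfa, other HIF1 targets, extracellular regulators, receptor partners, receptor signalling, tip cells, and markers of endothelium, pericytes, astrocytes, microglia, oligodendrocytes, cortical neurons, choroid plexus and meninges. Named genes are the 9, the 5 nearest profiles to Vegfa, in each list any called gene and the 3 smallest p-values, Hif1a and Hcar1, and in marker lists the most abundant and most changed gene, of which some are not reported here. Vegfd, Angpt2, Dll4, Esm1, Robo4, Eng, Pgk1, Pdk1, Col1a2 and Fam205a4 were named after their values were seen. Gene positions and exon lengths came from GENCODE M21, and promoters from RefSeq (GRCm38.p6), which held all 9 genes.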

Additional observations from a re-analysis of the deposited data

How the results depend on the processing

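Vegfa kept its direction in every alternative run, with a log2 fold change of 1.38 to 1.40 under other normalizations, without a filter, with DESeq2, with limma, and in the paired fit with a replicate block (1.38, edgeR adjusted p = 3.3e-08). The block changed the call of none of the 9 genes, and called 6 genes higher and 0 lower in all. With each library left out in turn, the Vegfa log2 fold change ranged from 1.28 to 1.58 and its adjusted p (edgeR) from 2.7e-06 to 0.0851, the number of VEGF genes called higher ranged from 0 to 1, all genes called higher from 0 to 6, and all genes called lower from 0 to 1 (Fam205a4, without WS replicate 3). Both counts of higher genes were 0 without NS replicate 2 or NS replicate 3, where 211 and 190 genes had an unadjusted p under 0.05 in edgeR; the cause was not tested. The members with groups that did not overlap ranged from 1 to 2, the second being Kdr without NS replicate 2 and Vegfb without WS replicate 3, where 7.81% and 9.91% of all genes were higher without overlap.

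Small differences changed sign when a library was left out, and none of these was called. The log2 fold change was -0.00022 for Vegfb without WS replicate 1. For Vegfc it ranged from -0.06 to 0.14, and was -0.02 when NS replicate 1 was left out, -0.00043 when NS replicate 2 was, and -0.06 when WS replicate 3 was. It was 0.02 for Pgf without NS replicate 1, -0.0011 for Flt1 and -0.03 for Nrp1 without WS replicate 3, and -0.04 for Nrp1 and -0.05 for Nrp2 without NS replicate 3. Over all libraries left out in turn, the range was -0.00022 to 0.23 for Vegfb, -0.42 to 0.02 for Pgf, -0.0011 to 0.26 for Flt1, -0.04 to 0.12 for Nrp1 and -0.05 to 0.19 for Nrp2. With the longest transcript as length, Vegfc and Nrp2 changed places in the NS order. Depth limits Vegfc, Pgf and Flt4, which had 46.3, 32.2 and 65.2 counts on average.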

Other observations

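The cell type marker lists gave these log2 fold changes. The 10 oligodendrocyte markers had log2 fold changes above 0 in 10 of 10 genes, with a median of 0.196 and sums of 8424.2 to 12115.6 CPM in NS and 10020.1 to 13405.7 CPM in WS, higher in WS in 3 of 3 same-numbered pairs (8424.2 against 10020.1, 12115.6 against 13251.7 and 11452.4 against 13405.7 CPM). Cldn11 had the largest change, at 0.24, and Mbp was the most abundant. The 10 astrocyte markers were above 0 in 10 of 10 (6 of 10 without WS replicate 3), with a median of 0.130, the largest change in Gja1 (0.59, and 0.08 without NS replicate 3) and Slc1a2 the most abundant. The 10 microglia markers were above 0 in 9 of 10, with a median of 0.099, and the largest value in Tmem119 (0.24), and summed to 507.6 to 533.9 CPM in NS and 540.2 to 558.7 CPM in WS. The 10 pericyte markers were above 0 in 8 of 10, with a median of 0.108, the largest value in Ndufa4l2 (0.21) and Rgs5 the most abundant. The 10 cortical neuron markers were above 0 in 4 of 10, with a median of -0.010 and the largest change in Fezf2 (-0.18). Over all genes tested 53.0% were above 0. The 9 choroid plexus markers tested had a median of -0.093, and their sum varied from 304.2 to 1011.6 CPM, both extremes being WS libraries. The 8 meningeal markers had a median of 0.182, with 7 of 8 above 0 and the largest value in Col3a1 (0.48), and Igf2 was the most abundant. In these 7 lists 0 genes were called, and 2 had an unadjusted p under 0.05 (edgeR), both in the meningeal list and higher in WS, namely Col3a1 and Col1a2. Of all genes tested 0.866% were higher at that threshold. With each library left out in turn, the medians ranged from 0.067 (without NS replicate 1) to 0.296 (without WS replicate 1) for oligodendrocyte markers, from 0.084 (without WS replicate 3) to 0.172 (without WS replicate 2) for astrocyte markers, from 0.068 to 0.119 for microglia markers, and from 0.070 (without WS replicate 3) to 0.180 (without WS replicate 2) for pericyte markers. The median changed sign for choroid plexus markers, from -0.911 without WS replicate 2 to 0.345 without WS replicate 1 and 0.273 without NS replicate 3, and for cortical neuron markers, from -0.086 without WS replicate 1 to 0.041 without WS replicate 3. For meningeal markers it ranged from 0.091 without NS replicate 2 to 0.347 without NS replicate 1. Among the other lists the median ranged from -0.030 to 0.042 for regulators of Vegfa, -0.035 to 0.002 for other HIF1 targets, 0.016 to 0.131 for extracellular regulators, 0.011 to 0.065 for receptor partners, -0.025 to 0.007 for receptor signalling, 0.085 to 0.156 for tip cell genes and 0.046 to 0.125 for endothelial markers.

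WS replicate 3 was the highest of the 6 libraries for 6 of the 9 VEGF genes, namely Vegfa, Vegfc, Flt1, Kdr, Flt4 and Nrp2, against 24.0% of all genes tested.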
